A study of Mus musculus with 13 samples.

Results

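The 9 genes described here act in retinoid and alcohol metabolism. They are Rbp2, Lrat, Adh1, Adh6a, Rdh7, Aldh1a1, Dhrs3, Cyp26b1 and Isx, taken by symbol from count tables that list 24054 genes. Each was followed across 13 bulk RNA-seq libraries in 6 groups from the small intestine of adult mice. The study asked what loss of Apc, a brake on Wnt signalling, does in different cells and settings of the intestine.

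The small intestine takes up dietary vitamin A. Absorptive enterocytes hold retinol on the binding protein Rbp2, and Lrat links it to a fatty acid, which makes the retinyl esters that leave in chylomicrons. Retinol can instead be oxidised to retinal by alcohol dehydrogenases such as Adh1 and by retinol dehydrogenases such as Rdh7, and retinal to retinoic acid by Aldh1a1. Dhrs3 reduces retinal back to retinol, and Cyp26b1 breaks retinoic acid down. Isx, an intestinal transcription factor induced by retinoic acid, represses the carotenoid uptake receptor Scarb1 and the carotene-cleaving enzyme Bco1.

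Every mouse, WT included, was dosed 2 times with 1 mg of tamoxifen. Organoids, epithelial mini-guts grown in culture from crypts labelled ileal and sequenced whole, formed 3 groups of 2 libraries. Their time point of 10 days runs from tamoxifen to plating in the labels of single samples and from plating to collection in the series' design text, so its meaning is in doubt. Sec-Cre Apc-null organoids came from Atoh1CreERT2;Apcfl/fl;Rosa26tdTomato mice, in which the Cre is driven in the secretory lineage. ISC-Cre Apc-null organoids came from Lgr5eGFP-CreERT2;Apcfl/fl;Rosa26tdTomato mice, in which it is driven in intestinal stem cells (ISCs), and the third group is labelled WT with no alleles named. Flow-sorted ISCs formed the other 3 groups. Ileal Sec-Cre Apc-null ISCs (Atoh1CreERT2;Apcfl/fl;Lgr5DTR-GFP;Rosa26tdTomato, n = 2) and ileal WT ISCs (Apcfl/fl;Lgr5DTR-GFP;Rosa26tdTomato without a Cre, n = 2) were taken at 21 days. Duodenal ISC-Cre Apc-null ISCs (the same genotype as the ISC-Cre organoids, n = 3) were taken at 14 days. There was no duodenal WT group among these samples, so region, Cre driver, reporter, day and the dissociation enzyme, which the labels give as TrypLE for 1 set of samples and collagenase for the others, cannot be told apart in comparisons with the duodenal libraries. The extraction protocol names the duodenum for all samples, so the word ileal rests on the labels of single samples.

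Libraries held 11524335 to 45516228 gene counts. The 2 libraries labelled ileal Sec-Cre stood apart, with 57.0% and 35.8% of reads unmapped against 2.58% to 13.9% in the other 11, and with library scaling factors of 0.352 and 0.876. Markers of Paneth cells, the antimicrobial cells of the crypt base, took 24.9% of all counts in replicate 1 and 0.844% in replicate 2. Reads lay on the second strand for 98.5% to 98.9% of gene counts in the 3 duodenal libraries and for 48.4% to 51.1% in the other 10. This difference between libraries, too, cannot be told apart from region, Cre driver, reporter, day and enzyme in comparisons with the duodenal libraries. Apc itself was read in every library, at 48.2 to 453 CPM (counts scaled to the library size), and counts over the whole gene do not check a deletion of part of it. Axin2, a direct Wnt target, was at 789 and 822 CPM in Sec-Cre organoids and at 782 and 817 CPM in ISC-Cre organoids, and WT organoids had 222 and 393 CPM. Among sorted cells the duodenal libraries had 679 to 771 CPM, and Axin2 stood at 285 and 330 CPM in ileal WT, and at 79.0 and 37.9 CPM in the libraries labelled ileal Sec-Cre. That last difference ran against the label (edgeR log2 fold change -2.40 ± 0.41 SE, adjusted p = 0.00785), so the group is called the libraries labelled ileal Sec-Cre below.

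Levels below are CPM scaled over all 13 libraries, and log2 fold changes are from the edgeR quasi-likelihood fit of the 6 organoid or the 7 ISC libraries, with Benjamini-Hochberg adjusted p-values over all genes tested and a call at adjusted p under 0.05. All 9 genes passed the filter on low counts in each fit. A mean is given ± SD over the libraries of its group.

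Among the 9 genes, Rbp2, Adh1, Adh6a and Rdh7 had related profiles. Over the 13 libraries, log2(CPM + 1) of Rbp2 correlated with that of Adh1 at r = 0.913, with that of Adh6a at r = 0.933 and with that of Rdh7 at r = 0.877. Adh6a and Rdh7 had r = 0.929, Adh1 and Adh6a 0.819 and Adh1 and Rdh7 0.707, as a description of libraries that fall into 6 groups. Adh1 (chr3:138260991-138290698) and Adh6a (chr3:138313286-138331134) are neighbours on chromosome 3, 22587 bases apart in GENCODE vM21 on GRCm38, and Rbp2 lies at chr9:98486115-98509781. The promoters of these 3 genes are shown because they were called in all 4 comparisons with WT, each from 250 bases before to 50 after the start site that RefSeq gives on GRCm38.p6. Capitals mark the motif letters found on either strand.
Rbp2 promoter (chr9:98490287-98490586, + strand): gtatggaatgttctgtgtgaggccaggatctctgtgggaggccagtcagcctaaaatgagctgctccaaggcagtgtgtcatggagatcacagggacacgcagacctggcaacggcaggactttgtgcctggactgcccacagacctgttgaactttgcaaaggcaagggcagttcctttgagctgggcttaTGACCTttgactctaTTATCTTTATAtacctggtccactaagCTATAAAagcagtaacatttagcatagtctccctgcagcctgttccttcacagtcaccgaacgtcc
Adh1 promoter (chr3:138277335-138277634, + strand): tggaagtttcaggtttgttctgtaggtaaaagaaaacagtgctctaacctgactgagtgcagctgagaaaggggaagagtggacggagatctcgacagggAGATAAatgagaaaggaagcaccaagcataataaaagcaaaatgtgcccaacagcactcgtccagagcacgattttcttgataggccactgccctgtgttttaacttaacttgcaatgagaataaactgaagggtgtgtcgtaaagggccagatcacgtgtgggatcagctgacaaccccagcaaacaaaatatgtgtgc
Adh6a promoter (chr3:138313036-138313335, + strand): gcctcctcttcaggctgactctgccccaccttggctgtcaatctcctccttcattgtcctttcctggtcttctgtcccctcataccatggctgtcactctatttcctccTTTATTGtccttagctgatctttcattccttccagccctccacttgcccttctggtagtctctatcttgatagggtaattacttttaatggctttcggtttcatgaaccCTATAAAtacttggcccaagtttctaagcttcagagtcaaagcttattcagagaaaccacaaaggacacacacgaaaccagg

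The search covered the 13 RefSeq promoters of the 9 genes and, for background, 32851 mouse promoters of the same length. The Rbp2 window holds TGACCT at -58, the opposite-strand form of the nuclear receptor half-site AGGTCA, which 16.3% of all promoters hold. It also holds TTATCT at -43, the opposite-strand form of the GATA motif AGATAA, overlapped by TTTATA at -38, the opposite-strand form of the TATA box letters TATAAA. Of all promoters, 11.2% hold AGATAA and TATAAA is in 13.6%. CTATAAA, the opposite-strand form of the CDX motif TTTATNG found in 10.9% of promoters, starts at -16 in Rbp2 and at -32 in Adh6a, and in both it overlaps TATAAA. Adh6a holds TTTATTG, a second CDX match, at -141, and Adh1 holds AGATAA at -150. None of the 13 promoters held the half-site AGGTCA repeated in the same direction with 1, 2 or 5 bases between (0.0396%, 0.00913% and 0.00913% of promoters), the HNF4 letters CAAAGTCCA (0.475%) or the TCF/LEF letters CTTTGAT (3.73%). These matches describe the letters in the windows.

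In organoids, 5 of the 9 genes, with roles in retinol binding, esterification and oxidation, were lower in both Apc-null groups than in WT, while Isx was higher. Not every oxidising gene fell, since Rdh10, outside the 9, rose in both (given below). Rbp2, Adh1, Adh6a, Rdh7 and Lrat fell and Isx rose in both comparisons, and Dhrs3 rose in Sec-Cre organoids. Aldh1a1 and Cyp26b1 passed the test in neither. In the Sec-Cre comparison with WT organoids, 2 of the 9 genes were called higher and 5 lower, where 33% of the 14208 genes tested were called in either direction (16.7% higher, 16.3% lower). In ISC-Cre against WT organoids, 1 was called higher and 5 lower, where 37.8% of genes were called (19.3% higher, 18.5% lower). The median log2 fold change of the 9 genes was -3.32 and -2.60, against 0.05 and 0.03 over all genes tested. Both comparisons use the same 2 WT libraries.

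**Figure D1:**
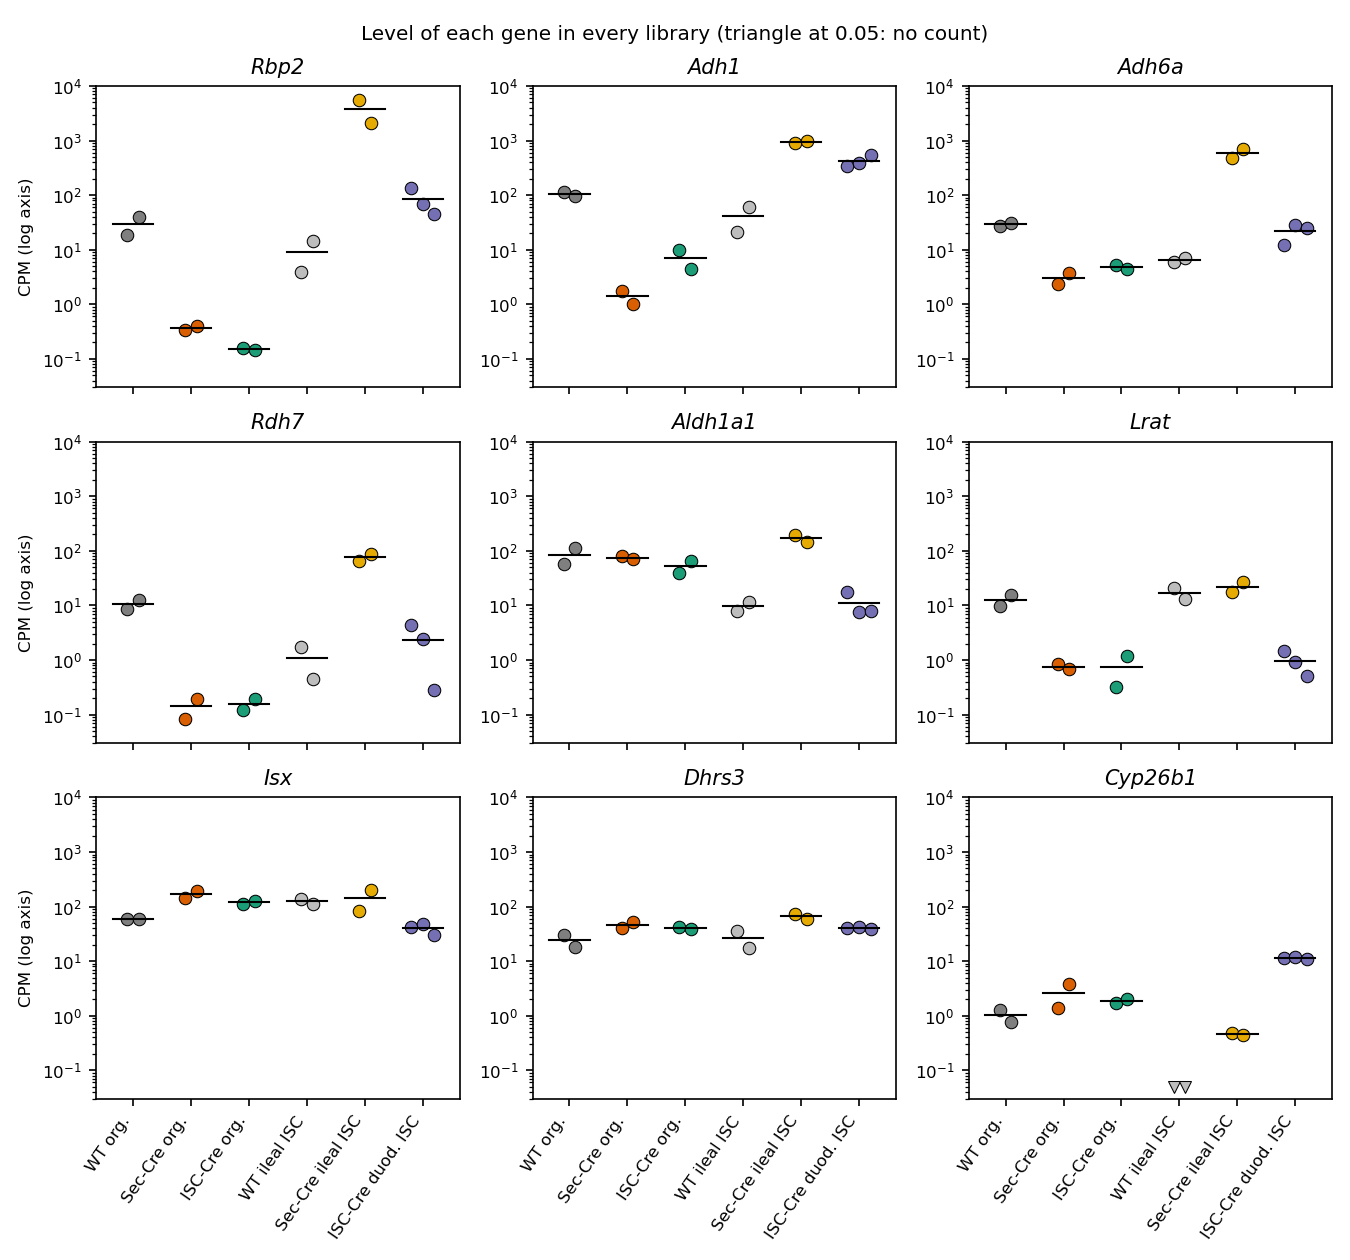
Level of each of the 9 genes in every library, in CPM on a log axis; points are libraries, coloured by group, bars are group means, and triangles mark libraries with no count. Rbp2 spans from 0.143 CPM in an ISC-Cre organoid library to 5445 CPM in a library labelled ileal Sec-Cre, whereas Dhrs3 stays between 17.3 and 72.6 CPM.

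Rbp2, the retinol carrier of absorptive cells, was at 19.0 and 39.5 CPM in WT organoids. It was at 0.338 and 0.395 CPM in Sec-Cre organoids and at 0.160 and 0.143 CPM in ISC-Cre organoids. The 4 Apc-null libraries, whose values rest on 3 to 10 reads each, lay far below both WT libraries. A lack of overlap with WT, in either direction, was common, at 71.3% of genes tested in Sec-Cre and 68.5% in ISC-Cre organoids. These shares apply to each gene below. The log2 fold change of Rbp2 was -6.35 ± 0.48 (SE, adjusted p = 0.000138) in Sec-Cre and -7.57 ± 0.54 (adjusted p = 9.01e-05) in ISC-Cre organoids by the edgeR test.

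Lrat (chr3:82892579-82903973), which esterifies retinol, was at 9.78 and 15.6 CPM in WT organoids, at 0.844 and 0.671 CPM in Sec-Cre organoids and at 0.320 and 1.19 CPM in ISC-Cre organoids. All 4 Apc-null libraries were under both WT libraries. It fell by 4.11 ± 0.62 on the log2 scale in Sec-Cre (edgeR adjusted p = 0.00255) and fell by 4.13 ± 0.63 in ISC-Cre organoids (adjusted p = 0.00218). A fall of this kind in whole organoids can come from fewer cells of a type or from less RNA per cell, which cannot be told apart in bulk samples.

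The alcohol dehydrogenases Adh1 and Adh6a fell together. Adh1, which oxidises both ethanol and retinol, was at 114 and 98.4 CPM in WT organoids, at 1.77 and 1.03 CPM in Sec-Cre organoids and at 9.96 and 4.43 CPM in ISC-Cre organoids. The 3 groups did not overlap, and the Sec-Cre libraries were the lowest. Between the 2 Apc-null groups, 39.6% of genes showed no overlap in either direction. The log2 fold change against WT was -6.30 ± 0.47 (edgeR adjusted p = 0.000129) in Sec-Cre and -3.90 ± 0.40 (adjusted p = 0.000422) in ISC-Cre organoids. Adh6a, a further member of the alcohol dehydrogenase family, was at 27.7 and 30.6 CPM in WT, at 2.32 and 3.71 CPM in Sec-Cre and at 5.32 and 4.52 CPM in ISC-Cre organoids. The smaller fold of Adh6a was -3.32 ± 0.30 (adjusted p = 0.000285) and -2.60 ± 0.29 (adjusted p = 0.000611).

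The neighbours of these 2 genes in the cluster on chromosome 3 did not share 1 pattern. Adh4, on the far side of Adh6a from Adh1, was at 3.80 and 5.64 CPM in WT organoids and had no read in the 4 Apc-null libraries. Against 3 counts over a group, that made it at least 77.2-fold lower in Sec-Cre and at least 72.4-fold lower in ISC-Cre organoids. Adh5, the most widely expressed family member and next to Adh4, stayed between 103 and 124 CPM in all 6 organoid libraries (log2 fold change 0.10 ± 0.12, edgeR adjusted p = 0.551, and -0.08 ± 0.12, adjusted p = 0.626). Adh7, on the other side of Adh1, had at most 4 reads in any organoid library.

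Rdh7 (chr10:127884028-127888817), a retinol dehydrogenase, was at 8.44 and 12.8 CPM in WT organoids. It was at 0.0844 and 0.197 CPM in Sec-Cre and at 0.120 and 0.190 CPM in ISC-Cre organoids, which rests on 2 to 5 reads a library. By edgeR it changed by -6.22 ± 0.60 (adjusted p = 0.000372) and -6.10 ± 0.60 (adjusted p = 0.00035). In its transcripts, 20.3% of all 31-base words also occur in another gene, most often Hsd17b6, so its counts are uncertain to that extent.

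Aldh1a1 (chr19:20492715-20643465), a retinal dehydrogenase, was at 58.2 and 113 CPM in WT organoids, at 81.3 and 69.5 CPM in Sec-Cre and at 39.2 and 66.4 CPM in ISC-Cre organoids. The groups overlapped in both comparisons with WT. The log2 fold change was -0.23 ± 0.33 (edgeR adjusted p = 0.63, 95% interval -1.0 to 0.54) and -0.73 ± 0.33 (adjusted p = 0.125, -1.51 to 0.05). The difference in ISC-Cre organoids was called by edgeR without the filter on low counts (adjusted p = 0.0473), and it was -1.13 without WT replicate 1. Its near copy Aldh1a7 fell from 34.7 and 48.2 CPM in WT to 5.66 and 9.35 CPM in Sec-Cre and 3.88 and 2.47 CPM in ISC-Cre organoids (log2 fold change -2.52 ± 0.34, adjusted p = 0.00159, and -3.73 ± 0.36, adjusted p = 0.000336). Aldh1a7 shares 13.8% of its 31-base words with other genes, chiefly with Aldh1a1.

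Isx (chr8:74873173-74893506) moved the other way. WT organoids had 58.4 and 58.0 CPM of it, against 143 and 195 CPM in Sec-Cre and 113 and 128 CPM in ISC-Cre organoids. Every Apc-null library was above both WT libraries, which agreed closely with each other. Isx rose by 1.49 ± 0.17 on the log2 scale in Sec-Cre (edgeR adjusted p = 0.000755) and by 1.01 ± 0.17 in ISC-Cre organoids (adjusted p = 0.00314), and in a fit of all 13 libraries the latter call was lost (0.0588). Of the 2 known targets it represses, Bco1 was at 3.52 and 4.89 CPM in WT organoids, 0.633 and 0.434 CPM in Sec-Cre and 0.960 and 1.48 CPM in ISC-Cre organoids, and fell in both (-3.02 ± 0.57, adjusted p = 0.00641, and -1.83 ± 0.54, adjusted p = 0.0317). Scarb1 did not pass the test (0.41 ± 0.33, adjusted p = 0.377, and 0.53 ± 0.33, adjusted p = 0.242). The part of Isx in these values was not tested.

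Dhrs3 (chr4:144892827-144928209), the retinal reductase, had smaller differences. It was at 30.1 and 18.4 CPM in WT, at 39.8 and 52.4 CPM in Sec-Cre and at 42.2 and 39.4 CPM in ISC-Cre organoids. All 4 Apc-null libraries lay above both WT libraries. Such a lack of overlap with WT, in either direction, was seen for 71.3% of genes tested in Sec-Cre and 68.5% in ISC-Cre organoids. The log2 fold change of 0.88 ± 0.26 in Sec-Cre was called (edgeR adjusted p = 0.0365), and the call was lost without Sec-Cre replicate 1 (0.0507), Sec-Cre replicate 2 (0.192) or WT replicate 2 (0.0873). It was lost too in a fit of all 13 libraries (0.0870). That of 0.72 ± 0.26 in ISC-Cre was not called (adjusted p = 0.0635), but was called by DESeq2 (0.0335), without the filter on low counts (0.0279), without scaling factors (0.0228) and without WT replicate 1 (0.0102).

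Cyp26b1 (chr6:84571414-84593908), which clears retinoic acid, was low in all organoids, with 1.27 and 0.755 CPM in the WT libraries, 1.39 and 3.87 CPM in the Sec-Cre libraries and 1.68 and 2.00 CPM in the ISC-Cre libraries. Its change of 1.34 ± 0.66 in Sec-Cre had an interval of -0.21 to 2.89 (edgeR adjusted p = 0.161), and that of 0.84 ± 0.67 in ISC-Cre one of -0.71 to 2.40 (adjusted p = 0.36).

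Per kilobase of exon, the order of the 9 genes differed between WT and Apc-null organoids. In WT, Adh1 led with a mean of 47.5 CPM per kilobase (RPKM), followed by Isx at 32.5 and Rbp2 at 30.4 RPKM, whose SD of 15.1 covers the gap to Isx. In both Apc-null groups Isx came first, at 94.4 and 67.0 RPKM, followed by Dhrs3 at 15.8 and 13.9 RPKM and Aldh1a1 at 15.3 and 10.7 RPKM, 2 neighbours that did not differ beyond their spread. Rbp2 was the seventh of 9 there, at 0.381 and 0.157 RPKM.

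The 2 Apc-null organoid groups were also set against each other, which asks whether the Cre driver matters. None of the 9 genes passed the edgeR test, 3 of them (Adh1, Adh6a and Isx) had an unadjusted p under 0.05, and 0.0422% of genes were called. The difference of Adh1, Sec-Cre minus ISC-Cre, was -2.40 ± 0.44 (adjusted p = 0.452, interval -3.42 to -1.37), with both Sec-Cre libraries below both ISC-Cre libraries, a lack of overlap that 39.6% of genes showed in either direction. DESeq2 called it (adjusted p = 1.74e-05), as did edgeR without the filter on low counts (0.00703), each calling 1 of the 9 genes. The intervals of the others were as wide as -0.32 to 2.76 for Rbp2 and -1.45 to 1.48 for Lrat, and 0.09 to 0.86 for Isx and -1.41 to -0.04 for Adh6a.

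**Figure D2:**
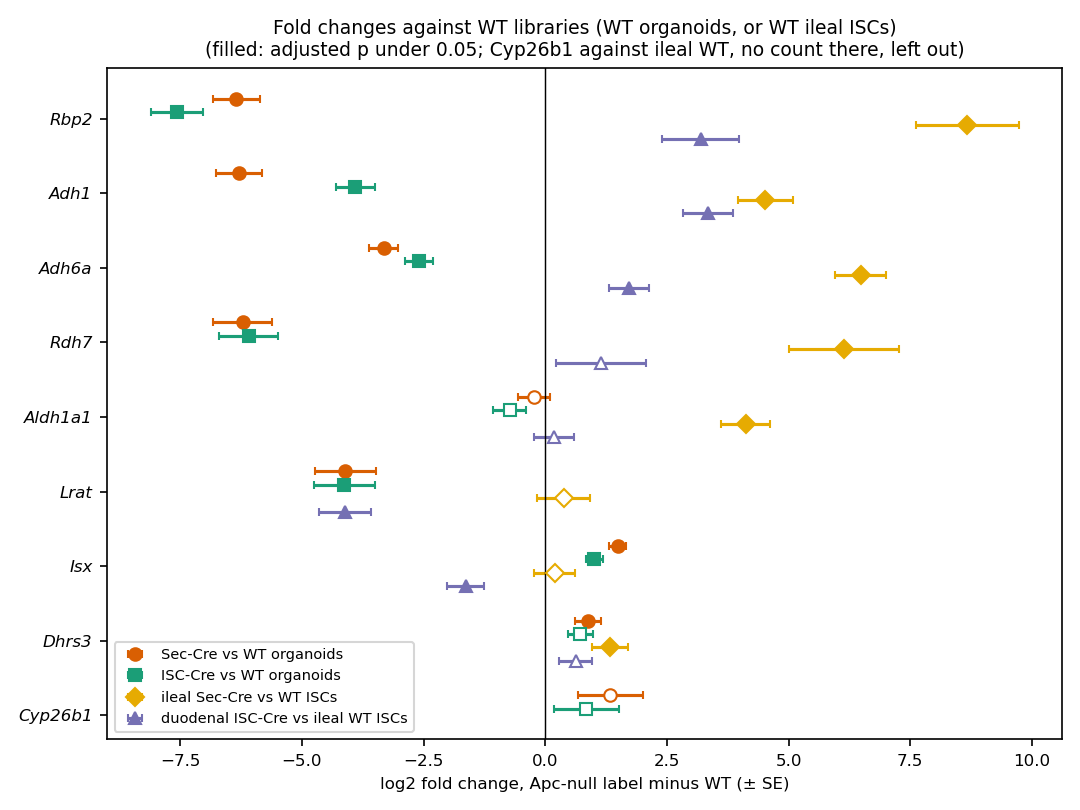
Log2 fold change of each gene against WT organoids or ileal WT ISCs, with SE bars; filled symbols passed an adjusted p of 0.05, and Cyp26b1 against ileal WT ISCs is left out because no read was found there. Rbp2, Adh1, Adh6a and Rdh7 lie left of 0 in both organoid comparisons and right of 0 in both ISC comparisons, where Rdh7 in duodenal ISCs did not pass the test.

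In ISCs, the libraries labelled ileal Sec-Cre had far more of the retinol-binding and oxidising genes among the 9 than ileal WT ISCs. Rbp2, Adh1, Adh6a, Rdh7, Aldh1a1, Dhrs3 and Cyp26b1 were called higher and none lower, while Lrat and Isx were not called. In this comparison 16.6% of 14577 genes were called in either direction, 9.62% higher and 6.96% lower. The median log2 fold change of the 9 genes was 4.53, against 0 over all genes tested. Without Sec-Cre replicate 1, the library with the most unmapped reads, 6 of the 9 genes were called and without replicate 2 all 7. Without WT replicate 1 or WT replicate 2 there were 4 (Rbp2, Adh1, Adh6a and Aldh1a1), each time with the lone library assumed to vary like the other groups. On library totals without scaling factors, 6 were called.

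Rbp2 was at 3.90 and 14.4 CPM in ileal WT ISCs and at 5445 and 2076 CPM in the libraries labelled ileal Sec-Cre (1919 and 1817 CPM without scaling factors). Both lay far above either WT library, and 60.2% of genes had no overlap between these groups. The log2 fold change was 8.68 ± 1.05 (edgeR adjusted p = 0.00327) with both, and 7.78 without Sec-Cre replicate 1 (adjusted p = 0.00652).

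Adh1 was at 20.9 and 60.7 CPM in WT and at 918 and 972 CPM in the libraries labelled ileal Sec-Cre, a log2 fold change of 4.53 ± 0.57 (edgeR adjusted p = 0.00357). Adh6a was at 6.01 and 7.14 CPM in WT and at 476 and 704 CPM in the libraries labelled ileal Sec-Cre, a change of 6.48 ± 0.53 (adjusted p = 0.00152). Here the order of the pair was opposite to that in organoids, where Adh1 changed more than Adh6a, although no test compared the 2 genes. Adh4 was high in the same libraries, at 16.7 and 18.1 CPM against 2 reads in all in WT, a ratio of 322 with an exact 95% counting interval of 88.9 to 2664.

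Rdh7 was at 1.73 and 0.456 CPM in WT and at 64.3 and 87.8 CPM in the libraries labelled ileal Sec-Cre, a log2 fold change of 6.14 ± 1.13 (edgeR adjusted p = 0.0103). The WT values rest on 28 and 9 reads, and the call was lost without WT replicate 1 (0.0575) or WT replicate 2 (0.0882). Aldh1a1 was at 8.05 and 11.5 CPM in WT and at 193 and 147 CPM in the libraries labelled ileal Sec-Cre, and it rose by 4.12 ± 0.51 (adjusted p = 0.00339). Unlike in organoids, its groups were well separated here. Dhrs3 was at 35.4 and 17.3 CPM in WT and at 72.6 and 59.7 CPM in the libraries labelled ileal Sec-Cre. Its change of 1.33 ± 0.37 (adjusted p = 0.0419) was no longer called without WT replicate 1 (0.068), WT replicate 2 (0.262) or Sec-Cre replicate 1 (0.089), or without scaling factors (0.604).

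Lrat and Isx did not pass the test in these libraries, with wide intervals. Lrat was at 21.1 and 13 CPM in WT and at 17.5 and 26.5 CPM in the libraries labelled ileal Sec-Cre, and the groups overlapped (0.38 ± 0.54, edgeR adjusted p = 0.663, interval -0.85 to 1.60). Isx was at 139 and 112 CPM in WT and at 84.7 and 202 CPM in the libraries labelled ileal Sec-Cre, which lie on either side of WT (0.19 ± 0.42, adjusted p = 0.782, -0.75 to 1.14). Both changes were below 0 without scaling factors, at -0.27 for Lrat and -0.34 for Isx. Cyp26b1 had no read in ileal WT ISCs and 20 in the libraries labelled ileal Sec-Cre, at 0.492 and 0.452 CPM. Against 3 counts over the WT group this was at least 5.65-fold higher (adjusted p = 0.015, lost without WT replicate 1 at 0.0736 or WT replicate 2 at 0.0915).

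Duodenal ISC-Cre Apc-null ISCs were set against the same ileal WT ISCs, the only WT ISCs here. Rbp2, Adh1, Adh6a and Cyp26b1 were called higher and Lrat and Isx lower, where 19.1% of genes were called (10.2% higher, 8.84% lower). The median log2 fold change was 1.15 for the 9 genes and 0.07 over all genes tested. The count of 6 fell to 3 without ileal WT replicate 1 and to 4 without any 1 of the other 4 libraries or without scaling factors. The calls of Rbp2, Adh6a and Isx were each lost in several of these fits.

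Rbp2 was at 137, 69.5 and 45.5 CPM in the duodenal libraries, each above both ileal WT libraries, as 61.3% of genes showed no overlap in one direction or the other (3.19 ± 0.79, edgeR adjusted p = 0.0259). This call was lost without WT replicate 1 (0.139), duodenal replicate 1 (0.0642) or duodenal replicate 2 (0.0575). Adh1 was at 339, 381 and 534 CPM and rose by 3.35 ± 0.52 (adjusted p = 0.0034). Adh6a was at 12.3, 28.3 and 24.5 CPM, a difference of 1.72 ± 0.41 (adjusted p = 0.0217) that was lost without WT replicate 1 (0.144), WT replicate 2 (0.13), duodenal replicate 2 (0.0661) or duodenal replicate 3 (0.0546). In CPM, the duodenal values of these 3 genes lay above ileal WT and below the libraries labelled ileal Sec-Cre, except that without scaling factors Adh1 was at 424, 456 and 523 CPM in duodenal libraries and 323 and 851 CPM in those labelled ileal Sec-Cre, which overlap.

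Lrat was at 1.45, 0.915 and 0.520 CPM in duodenal ISCs, all under the 21.1 and 13 CPM of ileal WT. It fell by 4.11 ± 0.53 on the log2 scale (edgeR adjusted p = 0.00157), close to its fold in both Apc-null organoid groups. Isx was at 41.5, 48.0 and 30.8 CPM, below both ileal WT libraries (-1.64 ± 0.38, adjusted p = 0.019), and this was lost without WT replicate 1 (0.115), WT replicate 2 (0.0805), duodenal replicate 1 (0.0606) or duodenal replicate 3 (0.0574) and without scaling factors (0.164). In organoids, against WT organoids, Isx had risen. Its target Bco1 was at 1.68, 2.41 and 0.378 CPM in the duodenal libraries, against 3.10 and 4.20 CPM in ileal WT, a difference that did not pass the test. Its target Scarb1 was at 50.1, 52.5 and 78.2 CPM, against 3.16 and 6.33 CPM. The part of Isx in these values was not tested. Rdh7 ranged from 0.284 to 4.29 CPM and overlapped WT (1.15 ± 0.92, adjusted p = 0.422), Aldh1a1 was at 17.4, 7.72 and 7.94 CPM (0.18 ± 0.41, adjusted p = 0.802) and Dhrs3 at 40.6, 41.9 and 39.2 CPM (0.63 ± 0.34, adjusted p = 0.228).

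Cyp26b1 was highest of all groups in duodenal ISCs, at 11.3, 12.0 and 11.1 CPM, a spread of under 1 CPM. Against 3 counts over the WT group it was at least 137-fold higher (edgeR adjusted p = 0.000801). The related clearance gene Cyp26a1 was at 9.65, 5.28 and 5.25 CPM there, with no read in either group of ileal ISCs and at most 2 in an organoid library, and was at least 80.5-fold higher (adjusted p = 0.00407). Summed markers of stromal and endothelial cells were at 90.4 to 166 CPM in the duodenal libraries, against 0.558 to 0.709 CPM in ileal WT and 0.853 to 0.985 CPM in the libraries labelled ileal Sec-Cre, where 6 to 8 of the 9 markers were at 0. Their part in the Cyp26b1 and Cyp26a1 values was not tested.

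Duodenal ISC-Cre libraries were finally compared with the libraries labelled ileal Sec-Cre. Cyp26b1 was called higher and Rbp2, Adh6a, Rdh7, Aldh1a1, Lrat and Isx lower, where 40.8% of genes were called (21% higher, 19.8% lower). The largest differences were those of Rbp2 (-5.48 ± 0.76, edgeR adjusted p = 0.00108), Rdh7 (-4.99 ± 0.88, adjusted p = 0.00312) and Adh6a (-4.76 ± 0.41, adjusted p = 0.000169). Cyp26b1 was 4.62 ± 0.66 higher (adjusted p = 0.00169). The groups did not overlap for 62.5% of genes. Adh1 differed by -1.18 ± 0.44 (adjusted p = 0.0609, interval -2.18 to -0.17) and was called by DESeq2 (0.031) and in the fit of all 13 libraries (0.0342). Without scaling factors it was -0.33 (0.677). The count of 7 was the same when either library labelled ileal Sec-Cre was left out, and it was 6 without scaling factors, where Isx was lost (0.17).

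Rbp2, Adh1, Adh6a and Rdh7 had moved in opposite directions in organoids and ileal ISCs. Whether the Sec-Cre difference from WT was the same in both materials was tested as an interaction in 1 edgeR fit of all 13 libraries. This term is the organoid difference minus the ileal ISC difference. It was negative and called for 7 of the 9 genes, where 26.4% of genes were called (13.4% higher, 13% lower). Rbp2 had the most negative value, -15.0 ± 1.23 (adjusted p = 1.43e-05), followed by Rdh7, Adh1 and Adh6a at -12.3 ± 1.46, -10.8 ± 0.81 and -9.75 ± 0.60. For Lrat (-4.44 ± 0.87, adjusted p = 0.0031) and Aldh1a1 (-4.30 ± 0.64, adjusted p = 0.000555) the difference was between a change in 1 material and none called in the other. For Cyp26b1 (-5.03 ± 1.60, adjusted p = 0.0391) both changes were above 0, that in organoids was not called, and ileal WT ISCs had no read. Isx (1.34 ± 0.50, adjusted p = 0.0662) and Dhrs3 (-0.40 ± 0.48, adjusted p = 0.595) were not called. Without the library labelled ileal Sec-Cre replicate 1, 7 genes were again called lower. Without replicate 2, 6 were lower and Isx was called higher (2.02, adjusted p = 0.00294), whereas without replicate 1 Isx was at 0.83 (0.121). In further fits, 6 of the 9 were called without scaling factors or without organoid Sec-Cre replicate 1, organoid WT replicate 1 or either ileal WT library, where Cyp26b1 was lost.

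Enterocyte markers moved in the direction of Rbp2, Adh1, Adh6a and Rdh7 in organoids and in the libraries labelled ileal Sec-Cre. The 15 enterocyte markers summed to 5144 to 6454 CPM in WT organoids, 776 to 932 CPM in Sec-Cre and 651 to 680 CPM in ISC-Cre organoids, where Apoa4, Fabp1 or Alpi were at 0 in some libraries. They summed to 3043 to 3233 CPM in ileal WT ISCs, 28239 to 50131 CPM in the libraries labelled ileal Sec-Cre and 2047 to 3368 CPM in duodenal ISCs. All 15 were called lower in both organoid comparisons, and 13 of 15 were called higher in the libraries labelled ileal Sec-Cre against WT. Stem cell markers summed to 1200 to 2167 CPM in the libraries labelled ileal Sec-Cre and 5342 to 5550 CPM in ileal WT, although both were sorted as ISCs. 

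Goblet and enteroendocrine markers that were called in the comparisons with WT were all lower, while Paneth, tuft and stem cell markers did not share 1 direction. In each Apc-null organoid group against WT, 6 of 7 goblet, 8 of 9 enteroendocrine and 4 of 5 tuft markers were called lower, beside 16.3% of all genes in Sec-Cre and 18.5% in ISC-Cre, and 1 tuft marker was higher in ISC-Cre. Of 8 Paneth markers tested, 6 were lower and 1 higher in Sec-Cre, and 3 lower and 1 higher in ISC-Cre organoids. Of 8 stem cell markers, 4 were higher in each, with 2 lower in Sec-Cre and 3 in ISC-Cre. In the libraries labelled ileal Sec-Cre against ileal WT, 1 goblet, 4 enteroendocrine and 2 stem cell markers were lower, 1 Paneth marker was higher and no tuft marker was called, beside 9.62% of genes higher and 6.96% lower. In duodenal ISCs against ileal WT, 5 goblet, 8 enteroendocrine and 1 stem cell marker were lower and 4 stem cell markers higher, with no Paneth or tuft marker called, beside 10.2% of genes higher and 8.84% lower. Stromal and endothelial markers summed to 10.5 to 33.4 CPM in Apc-null and 0.141 to 0.844 CPM in WT organoids, and immune markers to 3.45 to 36.5 CPM over all 13 libraries. The part of cell composition in the values of the 9 genes was not tested.

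Across the 13 libraries, log2(CPM + 1) of Rdh7, Rbp2 and Adh6a followed the log2 enterocyte sum most closely, with r of 0.937, 0.925 and 0.920. Adh1 had r = 0.789 and Lrat r = 0.784. Aldh1a1 (0.356), Dhrs3 (0.244), Isx (-0.0948) and Cyp26b1 (-0.333) followed it weakly or not at all. These values describe 13 libraries of unequal depth in 6 groups, some sorted and some not, and carry no p-value. In duodenal ISCs the enterocyte sum was near that of ileal WT, but some single markers were not. Of the 15 markers, 3 were called higher, 2 lower and 10 were not called, beside 10.2% of genes higher and 8.84% lower. The 15 together summed to 2047 to 3368 CPM, against 3043 to 3233 CPM in ileal WT, and the 2 called lower are not named here. Apoa4, Fabp1 and Alpi, given next, were chosen after their values were seen and do not stand for the 15. They lay above ileal WT in every duodenal library. Apoa4 was at 643, 242 and 138 CPM against 1.12 and 0.760 CPM in ileal WT, Fabp1 at 147, 70.6 and 31.5 CPM against 1.12 and 19.8 CPM, and Alpi at 134, 61.6 and 37.0 CPM against 15.3 and 18.9 CPM.

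**Figure D3:**
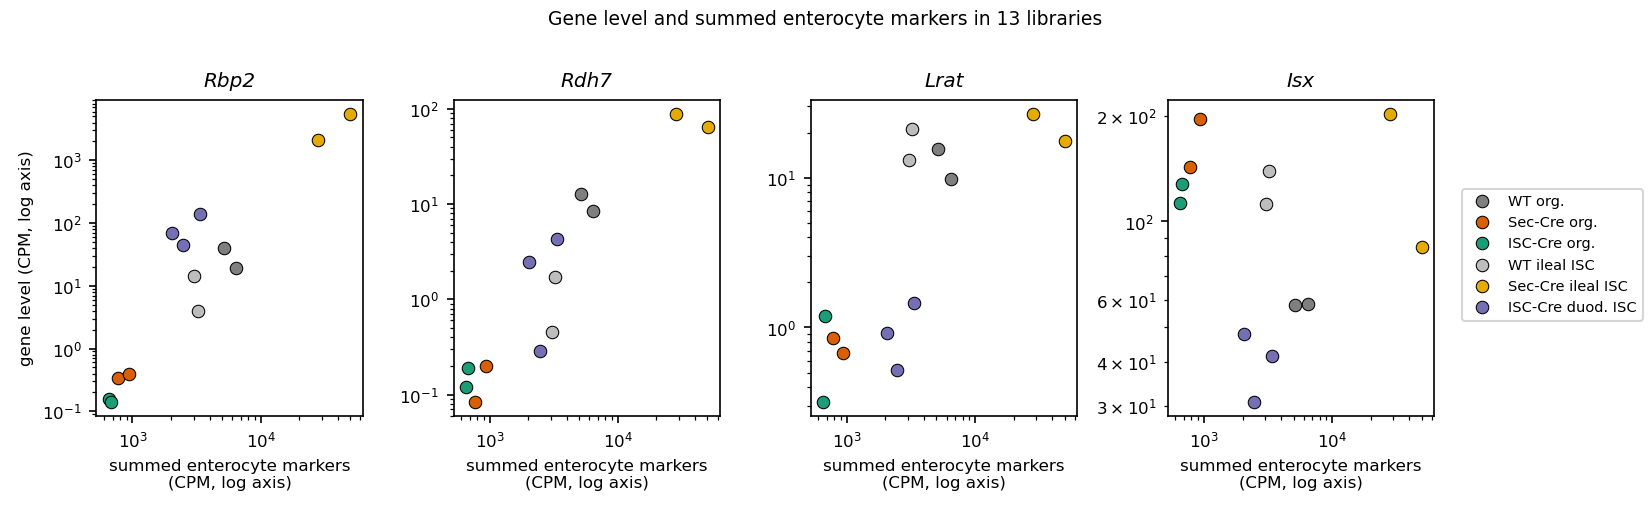
Levels of Rbp2, Rdh7, Lrat and Isx (CPM, log axis) against the summed enterocyte markers (CPM, log axis) in the 13 libraries, coloured by group. Rbp2 and Rdh7 lie along a rising band, Lrat in the 3 duodenal libraries (0.520 to 1.45 CPM) lies below ileal WT at a similar marker sum, and Isx shows no such band.

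The genes with the most similar profile differed from member to member (Pearson r of log2(CPM + 1) over 13 libraries, 12378 candidate genes). Rbp2 was most like Cyp4v3 (0.982), Fabp1 (0.981), which encodes the fatty acid-binding protein of enterocytes, and Iah1 (0.972). Rdh7 was most like Treh (0.989), the brush border trehalase, Adh4 (0.984) and Ceacam18 (0.981). Lrat was most like Vdr (0.987), the vitamin D receptor, Zc3h12d and Ugt2b5 (both 0.981). Adh1 was most like Gde1 (0.946), Alpi (0.941), the intestinal alkaline phosphatase, and Eci2 (0.940), and Adh6a most like Gtf2b (0.978), Nat8 (0.966) and Psmb1 (0.961). Fabp1, Treh and Alpi are themselves among the enterocyte markers.

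The remaining 4 genes had other partners. Isx was most like Gins4 (0.949), a DNA replication factor, Dnaja1 (0.943) and Tarbp2 (0.934), and Cyp26b1 most like Sp9 (0.961), Cirbp (0.960) and Tns1 (0.956). Aldh1a1 was most like Snora28 (0.934), Cdkn1a (0.906), the cell cycle inhibitor p21, and Atp6v1g1 (0.905), and Dhrs3 most like Vamp5 (0.909), Tmem138 (0.902) and Fam213a (0.898).

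Of 52 further genes of retinoid and alcohol metabolism, 51 were in the tables. In Sec-Cre against WT organoids, 38 were tested, 5 were called higher and 17 lower, beside 16.7% and 16.3% of all genes, with a median log2 fold change of -0.60. In ISC-Cre against WT organoids, 6 of 38 were called higher and 18 lower, beside 19.3% and 18.5% of all genes (median -0.68). By role, 4 of 6 tested genes of retinyl ester formation and hydrolysis, 4 of 6 other alcohol and aldehyde dehydrogenases and 3 of 4 genes of carotenoid uptake and cleavage were lower in each comparison and none was higher. Of 8 retinol dehydrogenases and retinal reductases, 2 were higher and 2 lower in Sec-Cre, and 3 and 3 in ISC-Cre organoids. In each comparison, 1 of 3 genes listed as retinal dehydrogenases was higher and 1, the Aldh1a1 near copy Aldh1a7, was lower. Of 6 genes of retinoid binding and transport, 1 was higher and 2 lower, and of 5 retinoic acid receptors, 1 was higher and 1 lower.

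Within that list, uptake and oxidation genes outside the main set went both ways. Stra6, the cell surface receptor for retinol bound to its plasma carrier, was at 162 and 102 CPM in Sec-Cre and at 259 and 248 CPM in ISC-Cre organoids, but had 1 read in all in WT organoids. The ratio was 4813 (exact 95% counting interval 864 to 190141) in Sec-Cre and 9335 (1675 to 368742) in ISC-Cre organoids. Rdh10, a retinol dehydrogenase of retinoic acid synthesis, rose from 26.5 and 32.5 CPM in WT to 354 and 297 CPM in Sec-Cre and 389 and 328 CPM in ISC-Cre organoids (log2 fold change 3.41 ± 0.18, edgeR adjusted p = 4.17e-05, and 3.57 ± 0.18, adjusted p = 3.03e-05). Dgat1, which can also esterify retinol, fell from 122 and 114 CPM to 27.7 and 31.2 CPM and to 22.7 and 22.0 CPM (-2.06 ± 0.14 and -2.44 ± 0.15). Aldh1b1, a mitochondrial aldehyde dehydrogenase, fell by 2.19 ± 0.19 and by 2.63 ± 0.19 on the log2 scale.

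In the libraries labelled ileal Sec-Cre against ileal WT, 12 of 45 tested genes were called higher and 2 lower, beside 9.62% and 6.96% of all genes (median 0.84). Dgat2 and Dgat1, both acyltransferases, rose by 3.25 ± 0.30 and by 2.95 ± 0.43 on the log2 scale (edgeR adjusted p = 0.00158 and 0.00494). Lipe, a hydrolase of stored esters, rose by 2.56 ± 0.36 (adjusted p = 0.00457). Cd36, a fatty acid and carotenoid transporter, was at 38.2 and 42.6 CPM against 4 reads in all in WT (8.4 ± 1.21, adjusted p = 0.00494). Leaving out a single WT library took the calls of Lipe (0.0515 and 0.0653) and Dgat1 (0.0648 and 0.0637), and without WT replicate 2 that of Cd36 (0.0503). The whole list fell to 4 called genes without WT replicate 1 and to 1 without WT replicate 2.

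Duodenal ISCs against ileal WT had 12 of these 45 genes higher and 7 lower, beside 10.2% and 8.84% of all genes. Rdh10 rose by 2.95 ± 0.29 on the log2 scale (edgeR adjusted p = 0.000656), and Plb1, a brush border phospholipase and retinyl ester hydrolase, fell by 5.07 ± 0.49 (adjusted p = 0.000601). Rarb, a retinoic acid receptor, was at 80.5, 76 and 58.9 CPM against 0.558 CPM and no read (8.08 ± 0.94, adjusted p = 0.00107), though part of its sequence is shared with Top2b. Stra6 was at 55.1, 47.9 and 58.1 CPM and had no read in ileal WT, at least 642-fold higher. The stromal marker values given with Cyp26b1 apply to these genes too, and their part was not tested. Against the libraries labelled ileal Sec-Cre, 12 were higher and 13 lower, beside 21% and 19.8% of all genes, led by Plb1 (-8.26 ± 0.53), Dgat1 (-4.48 ± 0.39), Aldh9a1 (-2.83 ± 0.31) and Dgat2 (-2.14 ± 0.25).

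**Figure D4:**
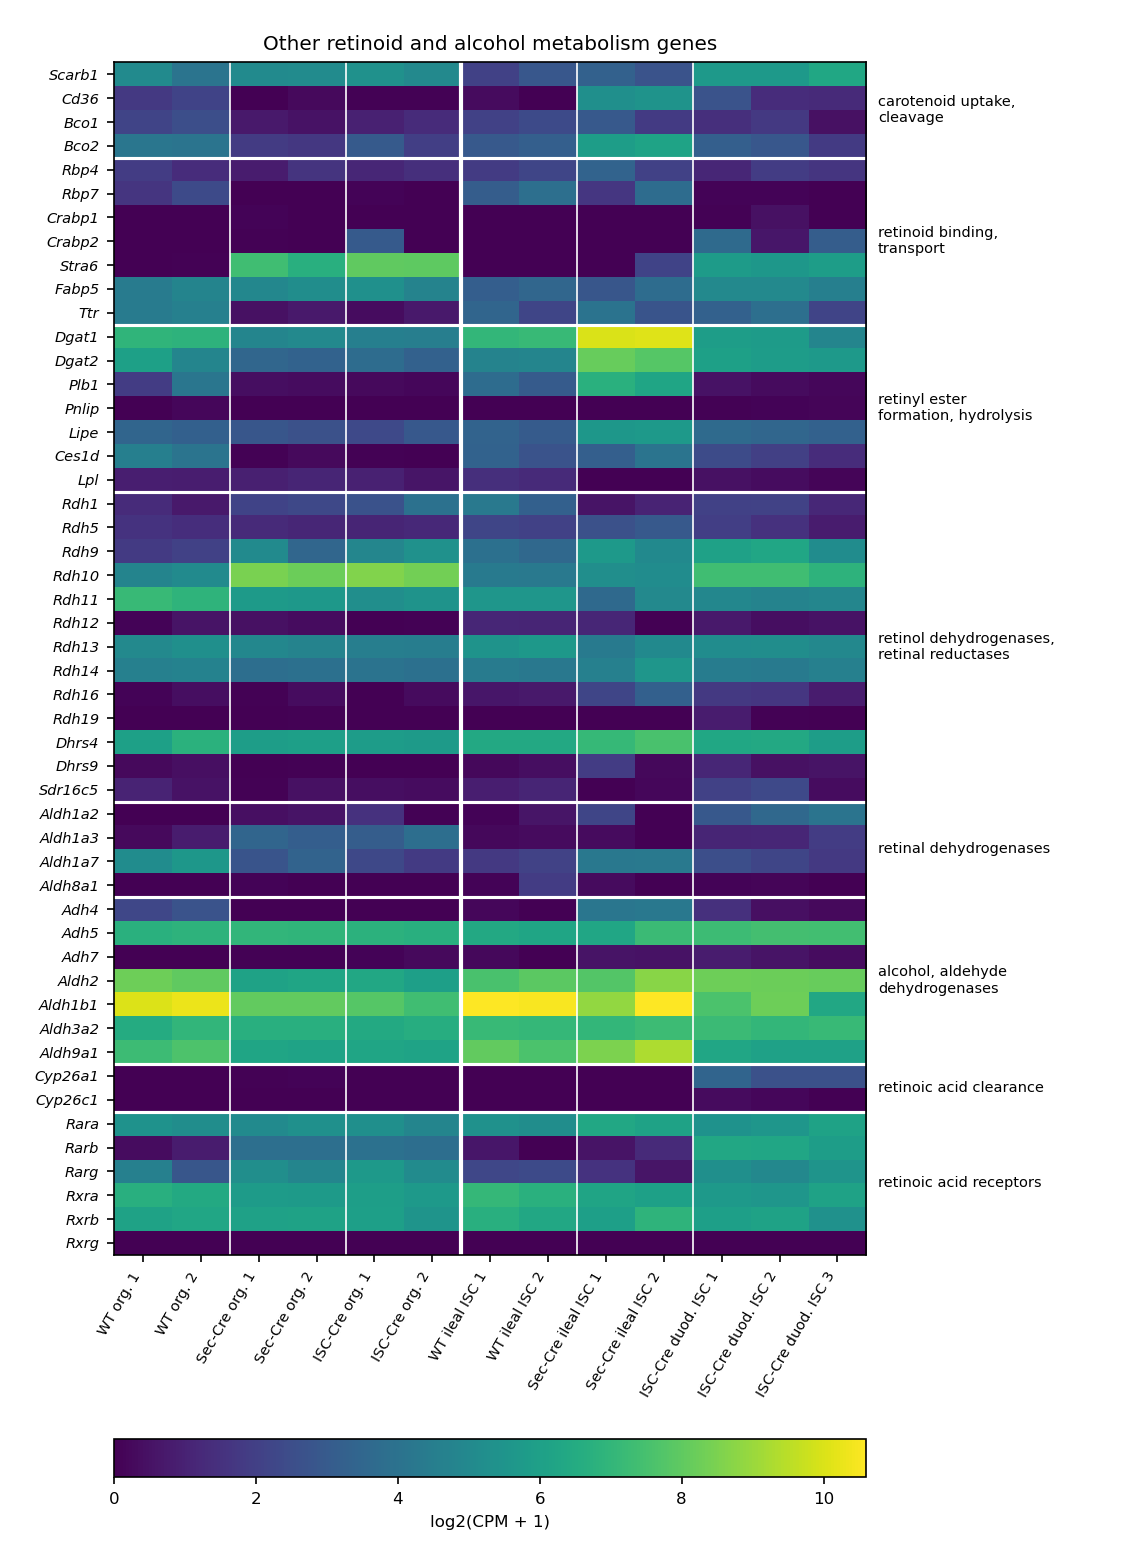
Levels of further retinoid and alcohol metabolism genes in the 13 libraries as log2(CPM + 1), from dark (0) to yellow (high), with genes grouped by role in rows and libraries by group in columns. Stra6 and Rdh10 are brighter in Apc-null than in WT organoids, Dgat1 is brightest in the libraries labelled ileal Sec-Cre (1022 and 1083 CPM), and Rarb and Cyp26a1 in duodenal ISCs.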

How the data were processed

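RNA-seq was measured in 13 mouse small intestine libraries. The deposited values were whole-number read counts per gene and library, as a column for both strands and a column for each strand. STAR (version not given), DESeq2 1.22.2 and build mm10 are named per the submitters' processing notes, and the gene annotation is not given in the sources used here. The kit is non-directional per the labels' protocols, which the second-strand share of the duodenal libraries (98.5% to 98.9%) does not match. The column for both strands was used, and the summary lines of each table (unmapped reads, 2.58% to 57.0%, and others) entered neither library sizes nor tests.

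Tests ran in edgeR 4.0.16 under R 4.3.3 (filterByExpr with minimum count 10, TMM scaling, quasi-likelihood test, Benjamini-Hochberg adjustment, threshold 0.05) in a fit of 6 organoid libraries (14208 genes), 1 of 7 ISC libraries (14577 genes) and, for the interaction, 1 of all 13 (15208 genes). The script was tested on simulated data. The prior count was 0.125. Where a group had no read, the fold was computed against 3 counts over the group, and ratios against 1 to 3 reads carry exact 95% intervals. Counting error is all that these intervals and floors cover, since the labels name no molecular identifiers. Nothing in the labels ties replicate numbers to animals or cultures, so the p-values measure a spread between samples that may be technical. Counts of each pair of replicates differed beyond counting noise (chi-square of their counts over its degrees of freedom 18.0 to 1572).

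Alternatives were DESeq2 1.42.0, limma 3.58.1 voom with library weights, RLE scaling, no filter, 1 fit of all 13 libraries, a replicate block, the second-strand column for duodenal libraries, and each library left out in turn. Library totals without scaling factors were added after seeing the data. Coordinates and shared 31-base words came from GENCODE vM21 (GRCm38), which holds 94.58% of the symbols. Promoters came from RefSeq (GRCm38.p6), with Python 3.11.15 and matplotlib 3.10.9 for annotation and plots. Bco1 is listed under its older symbol.

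The 9 genes and the lists were chosen with earlier results of these data known. The rule named the 9 genes, per comparison the 4 other called retinoid or alcohol genes with the smallest adjusted p, neighbours and near copies, Axin2, and per gene the 3 most similar profiles (leaving out predicted models and genes under 1 CPM on average). Genes named outside it (Bco1, Scarb1, Cyp26a1 and, in duodenal ISCs, Stra6, Apoa4, Fabp1 and Alpi) were chosen after their values were seen. A gene that the rule named is not reported here.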

Additional observations from a re-analysis of the deposited data

Results flagged for a closer look

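The difference of Sec-Cre Apc-null from WT was not the same in organoids and in ileal ISCs for 7 of the 9 genes, by the interaction term of the edgeR fit of all 13 libraries (organoid difference minus ISC difference, log2 scale). That term was called for 26.4% of all genes tested (13.4% higher, 13% lower). The values were -15.0 for Rbp2, -10.8 for Adh1 (adjusted p = 8.58e-06), -9.75 for Adh6a (adjusted p = 2.99e-06), -12.3 for Rdh7 (adjusted p = 0.000129), -4.30 for Aldh1a1, -4.44 for Lrat and -5.03 for Cyp26b1 (adjusted p = 0.0391). The Cyp26b1 value rests on a WT group with no read. Among the named genes of the wider list, the same term was called for Cd36 (-13.2 ± 1.64, adjusted p = 0.000169), Dgat1 (-4.96 ± 0.45, adjusted p = 2.09e-05), Dgat2 (-5.46 ± 0.51, adjusted p = 2.54e-05) and Aldh1a7 (-5.15 ± 0.63, adjusted p = 0.000153). The ISC side of each value rests on the libraries labelled ileal Sec-Cre, in which Axin2 was below WT.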

How the results depend on the processing

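The calls of Rbp2, Adh1, Adh6a, Rdh7 and Lrat in both organoid comparisons, and those of Rbp2, Adh1, Adh6a and Aldh1a1 in the libraries labelled ileal Sec-Cre against ileal WT, held under every alternative run. With 2 libraries in most groups, small differences such as those of Dhrs3 could not be settled. The cause of the changes below was not tested.

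In Sec-Cre against WT organoids, 4685 genes were called, 2477 in 1 fit of all 13 libraries and 2608 to 5101 with a library left out. In ISC-Cre against WT organoids, 5377 were called, 2997 in the fit of 13 and 3194 to 5542 with a library left out. Between both Apc-null organoid groups, 6 genes were called, 72 by DESeq2, 24 without the filter, 1 in the fit of 13, 12 by voom and 0 to 5 with a library left out. There, 1 of the 9 genes was called by DESeq2 and 1 without the filter, and DESeq2 called 1 gene of the wider list. In the libraries labelled ileal Sec-Cre against ileal WT, 2417 genes were called, 3790 by DESeq2, 4291 in the fit of 13, 1365 without scaling factors and 153 to 3183 with a library left out (153 without ileal WT replicate 2). The 9 genes then gave 4 to 7 calls, and the wider list gave 14, or 22 in the fit of 13, 8 without scaling factors and 1 to 19 with a library left out. In duodenal ISCs against ileal WT, 2783 genes were called, 4426 in the fit of 13, 7375 by voom, 1555 without scaling factors and 937 to 2226 with a library left out. The 9 genes gave 3 to 4 calls with a library left out, and the wider list 19 calls, 29 by voom and 9 to 17 with a library left out. For the interaction, 4013 genes were called and 2513 to 4888 with a library left out. Without scaling factors the median of all genes moved by 0.17 and 0.21 in the organoid comparisons with WT, and by -0.73, 0.13 and 0.85 in the ISC comparisons and 0.83 in the interaction. Among all calls in the libraries labelled ileal Sec-Cre, that left 299 higher and 1066 lower, against 1403 and 1014 with them.

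Signs turned for differences that were not called. With a library left out, Aldh1a1 ran from -0.62 to 0.32 in Sec-Cre against WT organoids (above 0 without WT replicate 2) and from -0.32 to 0.48 in duodenal against ileal WT ISCs (below 0 without WT replicate 1, at -0.04, or duodenal replicate 1). Between the Apc-null organoid groups, such fits ran from -0.84 to 0.34 for Rdh7 (0.34 and 0.20 without Sec-Cre replicate 1 or ISC-Cre replicate 2), from -0.64 to 1.19 for Lrat (-0.15 and -0.64 without Sec-Cre replicate 1 or ISC-Cre replicate 1), from -0.056 to 0.34 for Dhrs3 and from -0.42 to 1.06 for Cyp26b1, both lowest without Sec-Cre replicate 2. Lrat was there at -0.011 by DESeq2, -0.0065 by RLE scaling and -0.030 without scaling factors. In the libraries labelled ileal Sec-Cre against ileal WT, Isx ran from -0.56 (without Sec-Cre replicate 2) to 0.66 and was at -0.34 without scaling factors, where Lrat was at -0.27. Without scaling factors Dhrs3 was at 0.25 in duodenal against the libraries labelled ileal Sec-Cre and at 0.54 in the interaction, where it ran from -0.996 to 0.046 with a library left out (0.0080 without WT organoid replicate 1, 0.046 without ileal WT replicate 2). The interaction of Cyp26b1 was lost under several alternatives, with adjusted p up to 0.275 (voom), and that of Isx was called by DESeq2 (0.0419) and voom (0.0448) and, as given above, without the library labelled ileal Sec-Cre replicate 2.

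Libraries with the same replicate number did not deviate together (correlations of deviations -0.120 to 0.0743 within each material). These values cannot settle whether such libraries share animals, cultures or days, since the labels do not tie the numbers to any of these. With the replicate number as a block, 1671 genes were called in duodenal against ileal WT ISCs, and the calls of Rbp2 (0.0626) and Isx (0.0595) there, of Dhrs3 in Sec-Cre organoids (0.0519) and of Cyp26b1 in the interaction (0.0563) were lost, while the interaction of Isx was called (0.041).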
